A study of Mus musculus with 3 samples.

Results

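The 10 genes described here encode proteins of the actin cytoskeleton, with the intermediate filament protein vimentin beside them. They are the cytoplasmic actins Actb and Actg1, the actin-monomer binders Tmsb4x, Tmsb10 and Pfn1, the severing protein Cfl1, the filament-binding proteins Lcp1, Coro1a and Arpc2, and Vim. They were chosen by symbol for what their proteins do, as 10 of the 55536 annotated genes in the gene tables. All 10 were found by symbol and all 10 passed the filter on low counts.

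The cells were BMDM, macrophages that were cultured from C57BL/6J bone marrow. All libraries came from cells given 100 ng/ml Lipid A for 30 min. Lipid A is the part of bacterial lipopolysaccharide that Toll-like receptor 4 recognises. Total RNA of the cytosolic fraction was sequenced after depletion of ribosomal RNA, in 1 group of 3 libraries called replicates 1, 2 and 3 after the numbers in the labels. The labels record the same donor for all 3 and collected no sex or age, so errors and p-values describe only how these libraries vary, and part of that variation may be technical. Unstimulated cells were not analysed here, and the values below are therefore levels at 1 time with no contrast between conditions.

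Actin monomers assemble into filaments that grow mainly at one end. Beta-thymosins hold monomers in reserve, profilin passes them to growing ends, cofilin severs old filaments and the Arp2/3 complex starts branches on existing ones. In macrophages this turnover drives membrane ruffling, phagocytosis and migration. Monomeric actin also binds the coactivators MRTF-A and MRTF-B, which with the transcription factor SRF drive actin genes from a DNA element called the CArG box, so that the monomer pool feeds back on transcription.

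The 2 actins have similar coding sequences, and the first 60 bases of each are shown for comparison. Capitals mark the bases at which the 2 differ, 9 of the 60. Actb lies at chr5:142903115-142906754 and Actg1 at chr11:120345690-120348542, both on the minus strand (mm10, GENCODE release M21).
Actb: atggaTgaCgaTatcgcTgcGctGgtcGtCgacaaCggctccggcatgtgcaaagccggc
Actg1: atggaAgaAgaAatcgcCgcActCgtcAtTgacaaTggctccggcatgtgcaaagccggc
Over the whole coding sequence of 1125 nt without the stop codon, Actb and Actg1 differed at 128 bases, an identity of 88.6%. Their longest identical run was 62 nt.

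The 2 thymosins are short, and their whole coding sequences of 132 nt are shown because these 2 genes behaved differently across the libraries. Capitals again mark the 40 bases at which they differ, an identity of 69.7%, and no identical run exceeded 10 nt. Tmsb4x lies at chrX:167207093-167209315 and Tmsb10 at chr6:72957347-72958748, both on the minus strand.
Tmsb4x: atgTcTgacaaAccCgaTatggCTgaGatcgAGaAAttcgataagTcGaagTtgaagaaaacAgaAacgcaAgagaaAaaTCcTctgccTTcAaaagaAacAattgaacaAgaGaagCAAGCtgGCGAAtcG
Tmsb10: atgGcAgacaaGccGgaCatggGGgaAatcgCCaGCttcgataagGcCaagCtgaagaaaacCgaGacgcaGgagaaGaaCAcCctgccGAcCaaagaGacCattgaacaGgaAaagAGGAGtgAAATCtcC

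Summed over genes, replicates 1, 2 and 3 held 23403552, 50435201 and 35785896 expected counts. These are estimated reads per gene, and replicate 2 was the deepest library. The 10 genes took 1.331% of them in replicate 1 (95% Wilson interval 1.326 to 1.335), 1.303% in replicate 2 (1.300 to 1.306) and 1.474% in replicate 3 (1.470 to 1.478). These intervals reflect counting error alone, because PCR copies of a molecule were not told apart. In TPM, a unit that divides counts by effective transcript length and scales each library to one total, the 10 genes summed to 5734, 7833 and 6638 TPM, or 2.57%, 2.28% and 2.73% of the TPM of nuclear protein-coding genes. Those genes held 22.3%, 34.4% and 24.3% of all TPM in replicates 1, 2 and 3. A TPM can thus be higher in replicate 2 without a larger share of messenger RNA, and differences between libraries are given below on scaled counts. All 12 macrophage markers reached at least 10 TPM and 7 reached 100 TPM. Lyz2, the macrophage lysozyme, averaged 5224 ± 793 TPM, C1qb, a chain of complement C1q, 746 ± 56.1 TPM, and Cd68, a lysosomal glycoprotein, 742 ± 278 TPM (SD, n = 3). The 12 fibroblast markers stood apart in replicate 1, with 6413 counts in sum against 39 and 45 in replicates 2 and 3. Col1a1 had 2375 counts in replicate 1 against 1 and 14, and Col1a2 1565 against 5 and 16, both being chains of type I collagen. Of the 12, none was at 0 in replicate 1, 5 were at 0 in replicate 2 and 4 in replicate 3. The 8 contractile markers summed to 191, 42 and 44 counts, led by Acta2 with 85, 9 and 7 and Tagln with 56, 24 and 30. The 8 neutrophil markers summed to 2022, 4311 and 3368 counts, and 4 of them averaged at least 1 TPM. Of these counts Csf3r held 1840, 3345 and 2686, S100a9 92, 545 and 358, and S100a8 54, 305 and 167. Ly6g had 0, 0 and 1. T and NK cell markers held 1, 9 and 2 counts and B cell markers 47, 67 and 68. The erythroid and megakaryocyte list held 2404, 6208 and 4958 counts, of which 2373, 6152 and 4876 fell on Pf4, and its globin genes Hba-a1 and Hbb-bs were at 0.

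The 10 genes spanned a wide range of levels, and 6 of them ranked among the top 100 nuclear protein-coding genes by mean TPM. Their median log2(TPM + 1) was 8.30, 9.20 and 8.52 in replicates 1, 2 and 3, a mean of 8.67 ± 0.47 (SD, n = 3). Over the 13858 genes with a mean of at least 0.1 TPM the median was 2.12, 2.62 and 2.23, a mean of 2.32 ± 0.26.

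Tmsb4x, the main reserve-keeper of actin monomers, had 1860, 2456 and 1843 TPM in replicates 1, 2 and 3, a mean of 2053 ± 349 TPM and rank 10. Actb, beta-actin, had 1684, 1906 and 2147 TPM, a mean of 1913 ± 232 TPM and rank 12. These 2 were not separated: the log2 ratio of Tmsb4x to Actb within libraries was 0.10 ± 0.30, and Tmsb4x was the higher in 2 of 3 libraries. Actg1, gamma-actin, had 572, 663 and 760 TPM, a mean of 665 ± 94.0 TPM and rank 36. Actb stood above it in every library, by a log2 ratio of 1.53 ± 0.03. Their ratio on the linear scale was 2.94, 2.87 and 2.83, the steadiest of the neighbouring pairs in the order.

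By mean TPM a middle group of 4 genes followed, whose order changed from library to library. In replicate 2 Tmsb10, a gene of this group, stood above Actg1, with 697 against 663 TPM. Vim, the intermediate filament protein of mesenchymal cells and leukocytes, had 350, 609 and 470 TPM. Pfn1, profilin, which recharges monomers with ATP and hands them to filament ends, had 391, 563 and 447 TPM. Their means of 477 ± 129 and 467 ± 87.5 TPM differed by less than the spread, with a log2 ratio of 0.01 ± 0.15. Tmsb10, the second beta-thymosin, had 234, 697 and 228 TPM, so that replicate 2 alone was high and the other 2 were nearly equal. Its mean was 386 ± 269 TPM, the largest relative spread of the 10. Cfl1, cofilin, had 280, 335 and 299 TPM, a mean of 304 ± 27.6 TPM. Pfn1 was not separated from Tmsb10, nor Tmsb10 from Cfl1, the log2 ratios being 0.47 ± 0.68 and 0.14 ± 0.80.

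The 3 proteins that act on filaments were lower. Lcp1, the leukocyte plastin that bundles filaments, had 171, 284 and 212 TPM, a mean of 222 ± 57.0 TPM, and lay below Cfl1 in every library. Arpc2, a subunit of the Arp2/3 complex that contacts the mother filament, had 153, 280 and 187 TPM, a mean of 207 ± 65.7 TPM. It was below Lcp1 in all 3 libraries, by a log2 ratio of 0.12 ± 0.09. Coro1a, a coronin of blood cells that binds filaments and the Arp2/3 complex, was the lowest at 37.5, 40.4 and 44.5 TPM, a mean of 40.8 ± 3.48 TPM and rank 1023. Arpc2 exceeded it by 2.30 ± 0.43 on the log2 scale.

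**Figure D1:**
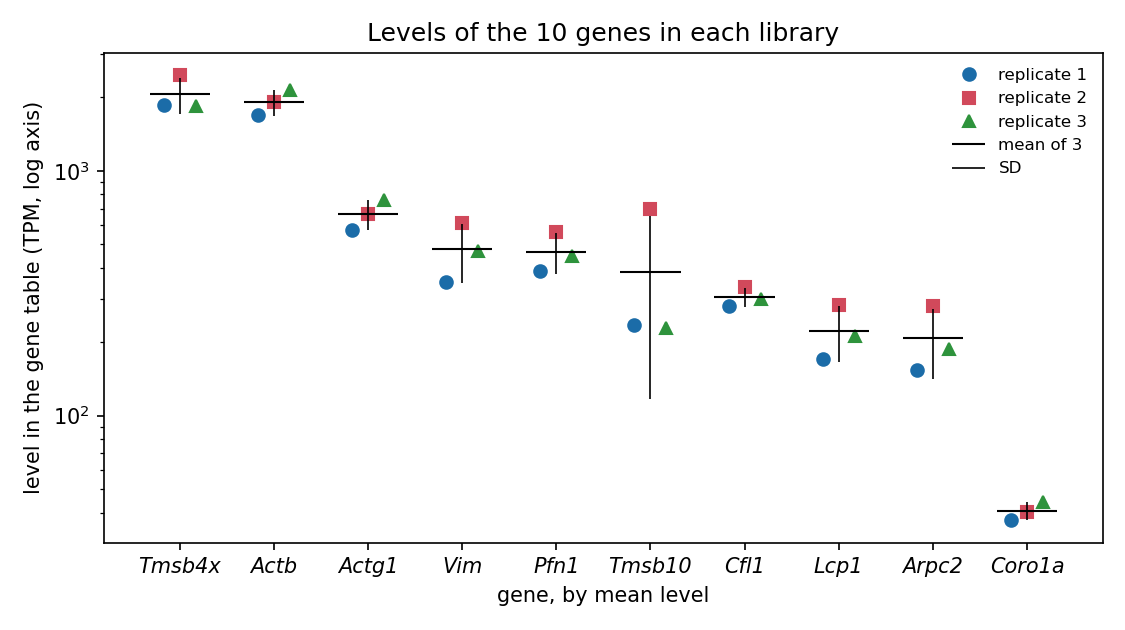
Level of each of the 10 genes in TPM on a log axis, 1 symbol per library, with the mean (horizontal bar) and SD (vertical line) of the 3 libraries. Tmsb4x and Actb sit at the top near 2053 and 1913 TPM, Coro1a at the bottom at 40.8 TPM, and Tmsb10 has the widest spread because replicate 2 reached 697 TPM.

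The 2 thymosins did not keep a fixed proportion. Tmsb4x exceeded Tmsb10 by 7.95 and 8.08 times in replicates 1 and 3 but by 3.52 times in replicate 2. The second transcript table, a separate quantification from the reads that the authors also deposited, gave ratios of 7.42, 3.28 and 7.35. Length correction mattered for another pair: Cfl1 was below Pfn1 per length, at ratios of 0.717, 0.595 and 0.668 in TPM, while its counts were higher, at ratios of 1.30, 1.15 and 1.26.

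Whether the libraries differed by more than counting error was tested gene by gene with the chi-square index of dispersion, on library sizes scaled by TMM (trimmed mean of M-values). All 10 genes passed at a Benjamini-Hochberg adjusted p under 0.05, against a background of 67.9% of all 13237 genes tested. At these depths the test detects small differences: of the 1978 genes with at least the mean count of Coro1a, the lowest of the 10 at 3521, 94.6% passed. The share of the 10 that passed is thus near that of genes counted as deeply. The largest chi-square adjusted p of the 10 was that of Pfn1, at 4.99e-21. The adjusted p depends on depth as well as on spread, so it does not rank the genes by variability. In bulk RNA, fewer cells of a type and less RNA per cell cannot be told apart in any of these differences.

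The size of the differences separated the genes more than the test did. In counts scaled to TMM library sizes (CPM), the ratio of the highest to the lowest library had a median of 1.29 over the 10 genes, against 1.19 over the 1978 genes of like or higher count. Tmsb10 had 166, 325 and 151 CPM in replicates 1, 2 and 3, a ratio of 2.15 that exceeded 98.7% of those genes. Actb had 5799, 4476 and 6723 CPM, a ratio of 1.50 that exceeded 90.5% of them. Actg1 followed the same order of libraries, with 1934, 1586 and 2338 CPM and a ratio of 1.47. Coro1a did so too, with 106, 78.8 and 113 CPM and a ratio of 1.44 (chi-square adjusted p = 9.90e-65).

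Replicate 2 was the lowest library for those 3 genes and replicate 3 the highest. Cfl1 shared this order at 664, 567 and 681 CPM, and Pfn1 at 510, 493 and 541 CPM, with ratios of 1.20 and 1.10. For Pfn1 the lowest library became replicate 1 with library totals in place of TMM scaling and in the second transcript table. In all, 5 of the 10 genes were highest in replicate 3 and lowest in replicate 2, a pattern that 19.9% of genes of like or higher count, and 13.2% of all genes tested, showed and passed the test with.

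A second set was highest in replicate 2 instead. Vim had 827, 1106 and 1018 CPM, a ratio of 1.34, and was lowest in replicate 1, the library that held 6413 of the fibroblast marker counts. Arpc2 had 377, 470 and 420 CPM (ratio 1.25, chi-square adjusted p = 4.56e-75) and Lcp1 1196, 1390 and 1342 CPM (ratio 1.16, chi-square adjusted p = 2.63e-97). With Tmsb10, 4 of the 10 genes were highest in replicate 2, against 41.7% of genes of like or higher count that passed and were highest there. Highest in replicate 3 were 5 of the 10, against 28.9%. Tmsb4x was the only one highest in replicate 1, where the background was 24.0%. It had 2062, 1825 and 1887 CPM, a ratio of 1.13, and its lowest library became replicate 3 with library totals and in the second transcript table. The part that the fibroblast RNA of replicate 1 played in these differences was not tested.

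**Figure D2:**
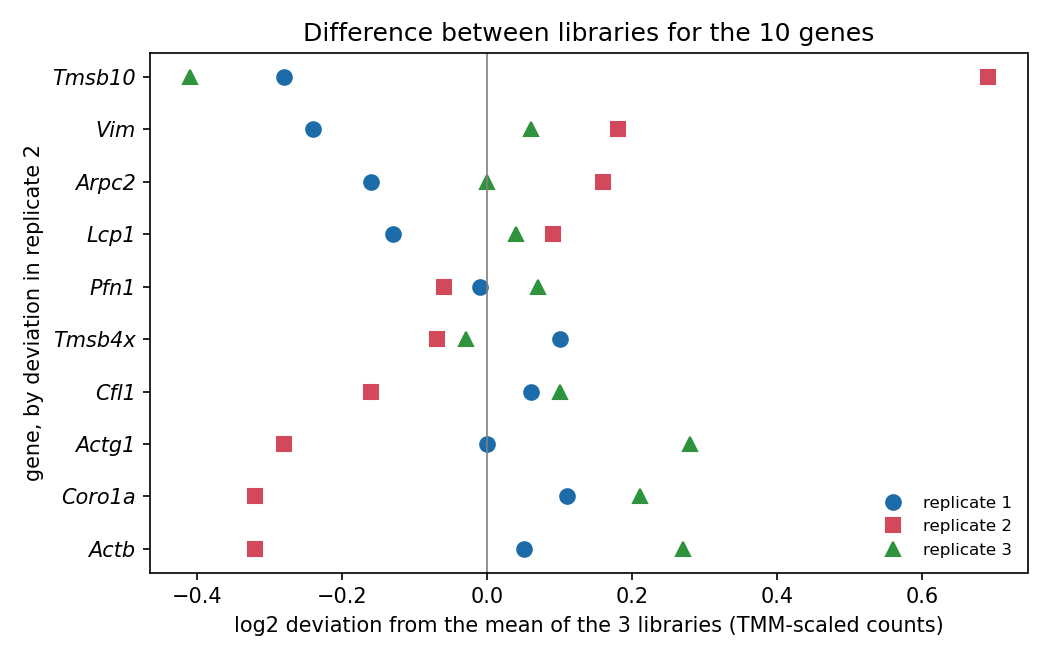
Log2 deviation of each gene in each library from its mean over the 3 libraries, on TMM-scaled counts with a prior count of 0.5, 1 symbol per library and genes ordered by replicate 2. Tmsb10 reached 0.69 in replicate 2, while Actb, Actg1 and Coro1a lay between -0.32 and -0.28 there and between 0.21 and 0.28 in replicate 3.

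**Figure D3:**
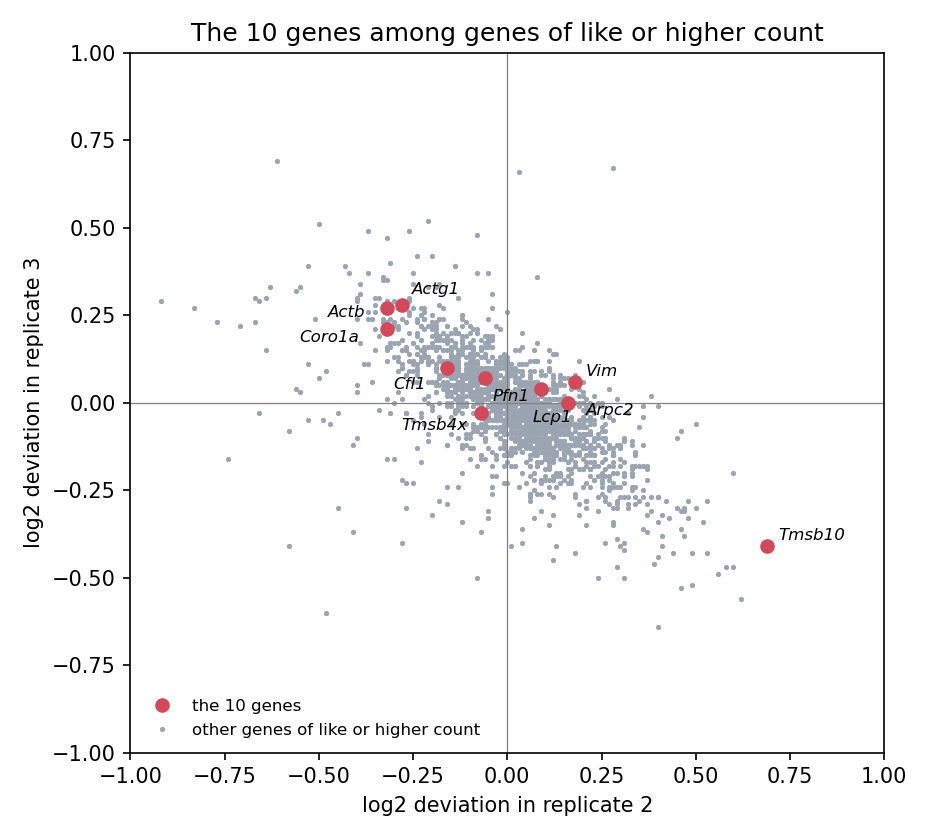
Log2 deviation in replicate 3 against that in replicate 2 for the 10 genes (large, named) and the 1968 other genes of like or higher count (small), of which 8 lie outside the axes. Actb, Actg1 and Coro1a lie in the upper left part of the cloud and Tmsb10 far to the lower right, each with other genes beside or beyond it.

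The isoforms were examined next. For 5 of the 10 genes a single isoform of the first transcript table held over 80% of the TPM in every library. Actb-201 held 99.4%, 98.8% and 99.1% in replicates 1, 2 and 3, although the second transcript table gave it 98.1%, 83.8% and 90.0% and placed 1.34%, 14.8% and 8.31% on the shorter Actb-202. Lcp1 was divided between Lcp1-209 (57.0%, 63.9% and 48.0%) and Lcp1-206 (39.3%, 34.5% and 48.8%), which encode the same number of bases, 1881. Arpc2 was divided between Arpc2-203 (73.6%, 78.1% and 70.1%) and Arpc2-201 (26.2%, 21.7% and 29.7%), with 900 coding bases each. For both genes the main isoform had its highest share in replicate 2 and its lowest in replicate 3.

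In the first transcript table Actg1 showed, of the 10 genes, the largest change in the share of its main isoform between libraries. Actg1-202 took 59.2% and 59.3% of its TPM in replicates 1 and 3 but 95.5% in replicate 2, and Actg1-204 took 39.2% and 38.8% against 3.65%. Actg1-204 has no base of its own: it lacks 125 bases of Actg1-202 and has the same 1125 coding bases. The second transcript table placed only 6.02%, 0.0258% and 6.39% on it and gave Actg1-202 92.3%, 98.9% and 91.7%, a smaller range than it gave Vim-201 (50.1%, 68.7% and 55.7%) or Actb-201. In both tables Actg1-204 had its lowest share in replicate 2, but the size of the share differed between them.

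The isoforms of Vim were also divided differently in replicate 2. Vim-201, the full-length coding transcript of 2193 nt, took 34.3%, 55.0% and 33.4% of the TPM. Vim-206, a coding transcript that starts 329 nt later and lacks exon 8 of Vim-201 (86 nt, chr2:13581613-13581698), took 20.8%, 6.40% and 22.1%. The second table gave Vim-206 6.43%, 0.167% and 6.93%. The junction that distinguishes the 2 transcripts is shown with the last 15 bases of exon 7 in lower case and the first 15 bases of the next exon in capitals (plus strand).
Vim-201: ccctgaacctgagagAAACTAACCTGGAGT
Vim-206: ccctgaacctgagagGTGATCAATGAGACT
Vim-203, an annotated retained-intron transcript of 535 nt, held 43.9%, 38.4% and 43.3% of the TPM of Vim but only 11.8%, 8.81% and 11.9% of its counts, TPM being per length and this transcript short. It has only 52 bases outside the exons of Vim-201 (chr2:13579369-13579420), shown here because they alone set it apart.
Vim-203: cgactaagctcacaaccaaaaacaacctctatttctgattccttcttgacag
With all reads of the gene placed on Vim-201, an alternative chosen after the split was seen, Vim had 206, 402 and 279 TPM, a mean of 296 ± 99.1 TPM in place of 477.

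Cfl1 was divided between Cfl1-201 (79.9%, 73.4% and 73.8%) and Cfl1-202 (19.8%, 25.0% and 25.3%), which carries 1206 bases that Cfl1-201 lacks. With all reads on Cfl1-201 its mean was 397 ± 45.5 TPM in place of 304. When the reads of each gene were placed on its main transcript, the order changed. Vim then lay below Cfl1 and below Pfn1 (470 ± 86.7 TPM) in every library. Cfl1 overlaps Snx32 on the opposite strand (2.18, 4.18 and 2.50 TPM) and Coro1a overlaps Bola2 (12.7, 35.2 and 16.9 TPM). The use of strand in counting is not given in the sources used here, so reads from these overlaps cannot be assigned with certainty.

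**Figure D4:**
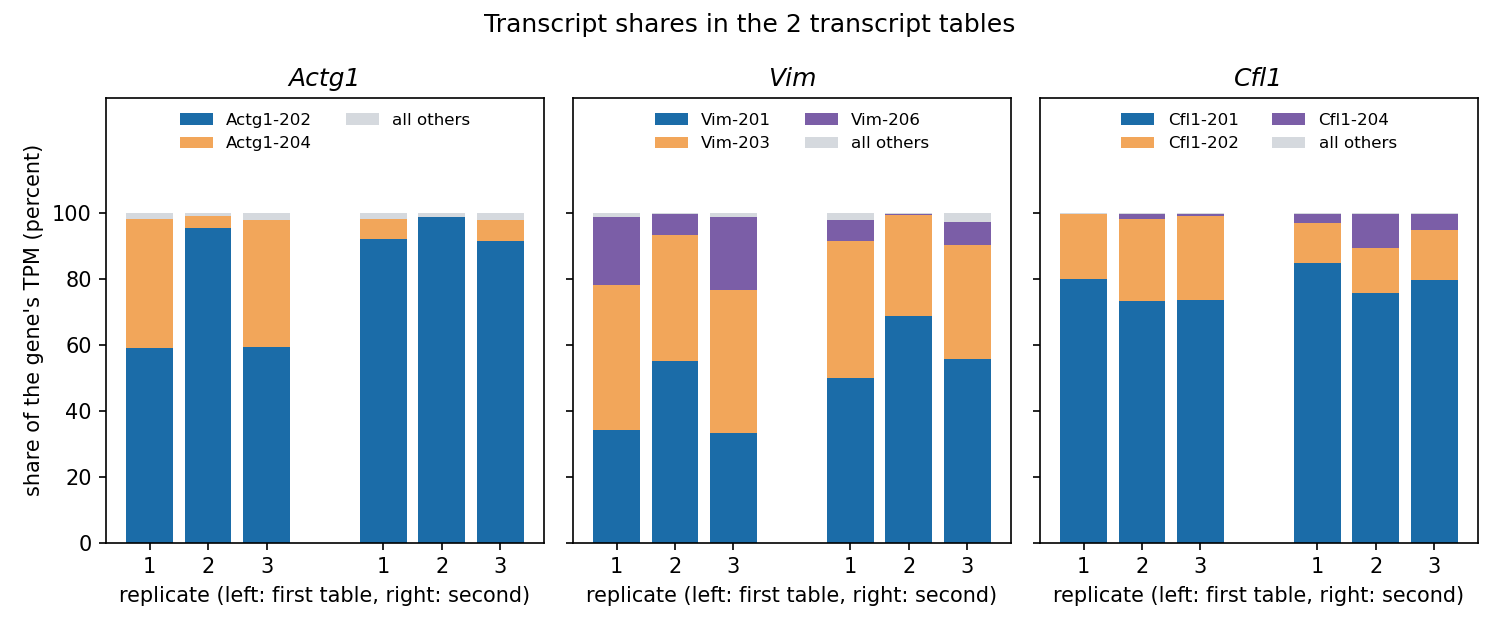
Share of each gene's TPM by transcript for Actg1, Vim and Cfl1, in percent, in the first transcript table (left bars) and the second (right bars), 1 bar per replicate. In the first table Actg1-204 and Vim-206 shrink in replicate 2, to 3.65% and 6.40%, and in the second table both are small in all 3 libraries.

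Annotated retained-intron transcripts were a small part of the other genes and were mostly lowest in replicate 2. Their share of TPM was 1.47%, 0.692% and 1.59% for Actg1, 1.04%, 0.155% and 1.01% for Lcp1, and 2.45%, 0.989% and 4.43% for Coro1a in replicates 1, 2 and 3. Cfl1 was the exception in this table, with 0.111%, 0.137% and 0.288%. Over the 2613 nuclear protein-coding genes of 10 TPM or more that have such a transcript, the median was 1.39%, 0.619% and 1.73%. The nuclear RNA Malat1 had the same order of libraries as this median and as Actb, with 3826, 1284 and 6469 CPM, and so did Neat1, with 694, 152 and 855 CPM. The part that nuclear RNA in the fraction played in the differences of these genes was not tested.

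Some of the 10 genes share sequence with other annotated genes, which can limit how surely reads are placed. The deposited posterior SD of the counts was nonetheless small, at 24.5, 71.9 and 41.3 counts for Actg1 and 1.76, 1.96 and 1.48 for Tmsb10. Of the 50-nt stretches of the main transcript, 63.5% of Tmsb10, 56.7% of Actg1, 19.1% of Cfl1, 14.2% of Actb and 7.46% of Lcp1 also occur in a transcript of another gene. Arpc2 had 0.216%, and Tmsb4x, Pfn1, Coro1a and Vim had 0. Gm12715, the processed pseudogene that shares most with Actg1, had 8.54, 25.2 and 13.5 TPM, and Gm9844, which shares most with Tmsb10, had 1.05, 2.41 and 0.910 TPM. The gene sharing most with Actb was the protein-coding Lrrc58, with 18.1, 23.5 and 18.0 TPM. In all, 18 genes share stretches with Actb, Actg1 among them with 44159, 84613 and 81062 counts. Those outside the 10 genes held 7630, 16544 and 10778 counts in sum, of which Lrrc58 held 7052, 14786 and 9644. How these counts divide between shared and unshared sequence was not tested. Relative to nuclear protein-coding genes, the gene table and the second transcript table differed by -0.16 to 0.22 on the log2 scale over the 10 genes, from Cfl1 (-0.16 ± 0.04) to Vim (0.22 ± 0.04). Tmsb10 differed by -0.12 ± 0.01 and Actg1 by 0.12 ± 0.03. Without this scaling the TPM of the 2 tables differed far more. Actb had 642, 1299 and 541 TPM in the second transcript table, against 1684, 1906 and 2147 TPM in the gene table. Nuclear protein-coding genes held 8.82%, 21.4% and 5.91% of all TPM in the second table, against 22.3%, 34.4% and 24.3%. The gene levels in TPM given above are those of the gene table.

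The wider actin system was described with 116 further genes in 14 lists. Of these, 81 reached 1 TPM and 12 reached 100 TPM. The between-library test was possible for 93, and 77 passed, which is 82.8%, against 67.9% of all genes tested. Of the 93, 15 (16.1%) passed and were highest in replicate 1, 36 (38.7%) in replicate 2 and 26 (28.0%) in replicate 3. Over all genes tested the same shares were 16.8%, 32.0% and 19.1%. Over the 1978 genes with at least the mean count of Coro1a they were 24.0%, 41.7% and 28.9%, and 94.6% passed. The counts per list below are to be read against both backgrounds, because deeply counted genes passed more often.

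Each of the 3 families that set the monomer pool was represented almost wholly by its members named above. The muscle actins Acta1 and Actc1 had at most 0.0100 TPM in any library. Acta2 and Actg2, the smooth muscle actins, had 1.01 and 0.140 TPM in replicate 1 and at most 0.0700 TPM in the others. Tmsb15a and Tmsb15b1 were at 0 in all 3 libraries, Tmsb15b2 averaged 0.103 ± 0.179 TPM and Tmsb15l 0.0233 ± 0.0208 TPM. Among profilins, Pfn2 averaged 1.12 ± 0.214 TPM and did not pass the test (chi-square adjusted p = 0.984), Pfn4 averaged 0.0233 ± 0.0321 TPM, and Pfn3 was at 0.

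Among ADF/cofilin genes and cofactors, 8 of 9 tested passed, 5 of them highest in replicate 2. Cotl1, which binds filaments and competes with cofilin, had 153, 227 and 195 TPM, and Cap1, which helps to recycle monomers, had 93.8, 156 and 110 TPM. Cfl1 averaged 304 ± 27.6 TPM, against 44.7 ± 12.3 TPM for its paralog Dstn and 5.18 ± 1.62 TPM for Cfl2. Of the kinases and phosphatases of cofilin, 6 of 8 passed. Ssh3 averaged 15.2 ± 3.60 TPM and Tesk1 11.0 ± 1.16 TPM, the highest of that list.

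The other Arp2/3 subunits ranged widely around Arpc2. Arpc2 averaged 207 ± 65.7 TPM, against 232 ± 45.3 TPM for Actr3, an actin-related core subunit, and 202 ± 67.9 TPM for Arpc3, the 2 highest. At the low end were Arpc1a with 23.1 ± 5.21 TPM, Arpc5l with 11.1 ± 2.64 TPM and Actr3b with 0.117 ± 0.0115 TPM, named after their values were seen. Of 9 subunits tested besides Arpc2, 7 passed, 3 highest in replicate 1, 3 in replicate 2 and 1 in replicate 3. Among activators of the complex, Nckap1l, the blood-cell subunit of the WAVE complex, averaged 89.3 ± 18.2 TPM and did not pass (chi-square adjusted p = 0.113). Hcls1, the blood-cell relative of cortactin, averaged 57.0 ± 20.3 TPM and was highest in replicate 2. In that list 11 of 15 passed.

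Formins, which extend unbranched filaments, were low: Diaph1 averaged 19.7 ± 2.18 TPM and Diaph2 9.54 ± 2.11 TPM, and 9 of 10 passed, 6 of them highest in replicate 3. Of cappers and severing proteins all 10 tested passed (67.9% of all genes), 7 of them highest in replicate 2 (32.0% of all genes). They were led by Capg with 148, 284 and 190 TPM and Capzb with 102, 199 and 119 TPM, which both cap the growing ends. Of bundlers and crosslinkers 8 of 11 passed, close to the 67.9% of all genes, with 6 highest in replicate 3 (19.1% of all genes) and none in replicate 2 (32.0%). These lists are small, and no difference from other genes was tested. Lcp1 led this list, and its paralogs Pls3 and Pls1 averaged 1.41 ± 0.294 and 0.0200 ± 0.0100 TPM. Iqgap1, a scaffold protein that binds filaments, averaged 116 ± 9.78 TPM and Evl, which promotes filament growth, 81.3 ± 5.87 TPM.

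Coro1a was not the leading coronin. Its 37.5, 40.4 and 44.5 TPM lay in every library below Coro1c, with 52.2, 87.2 and 68.2 TPM, and Coro1b, with 50.4, 96.0 and 60.5 TPM. Coro7 averaged 20.8 ± 5.34 TPM, Coro2a 14.9 ± 3.71 TPM, Coro2b 1.40 ± 0.637 TPM and Coro6 0.00333 TPM. All 5 coronins tested besides Coro1a passed. All 4 tropomyosins, which coat filaments, passed, with Tpm3 at 191 ± 64.2 TPM and Tpm4 at 52.0 ± 12.8 TPM. Vim was the main intermediate filament gene outside the nucleus. The lamins Lmna and Lmnb2 averaged 37.5 ± 8.17 and 2.07 ± 0.400 TPM and Lmnb1 1.25 ± 0.350 TPM. Other paralogs of Vim were near 0: Nes averaged 0.237 ± 0.0929 TPM, Des and Krt18 0.00667 TPM each and Gfap 0.00333 TPM, while Krt8 and Prph were at 0.

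**Figure D5:**
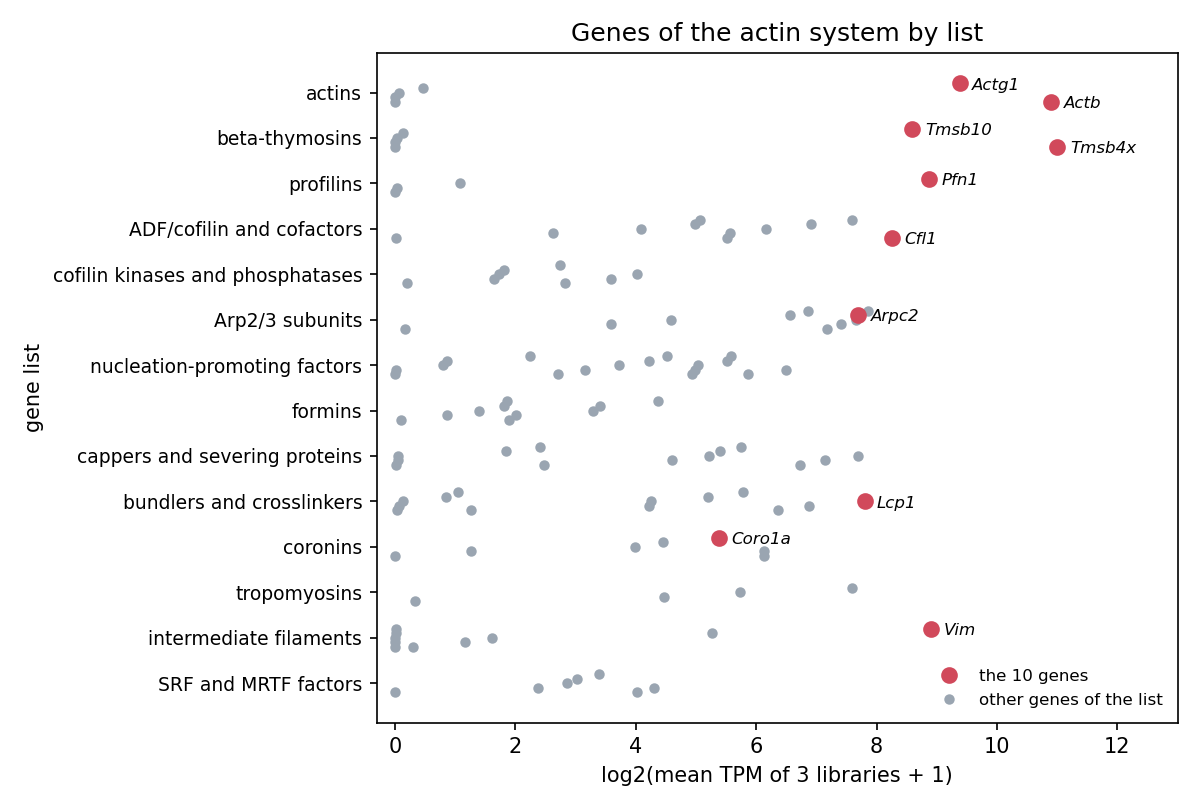
Mean level of every gene of the 14 lists as log2(TPM + 1), 1 row per list and 1 point per gene, with the 10 genes enlarged and named. In the actin, thymosin and profilin rows every gene other than those named lies at or below the 1.12 TPM of Pfn2, while Arpc2 and Coro1a lie among other genes of their lists.

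The transcription factors of the SRF pathway were expressed at low levels. All 6 tested passed, 4 of them highest in replicate 2 and 2 in replicate 3. Mrtfa, which encodes MRTF-A, averaged 18.8 ± 2.51 TPM and Elk4, a DNA-binding partner of SRF, 15.2 ± 4.04 TPM. Srf, named after its values were seen, had 26.3, 20.9 and 39.0 CPM in replicates 1, 2 and 3 (ratio 1.86, chi-square adjusted p = 7.79e-54). Its order of libraries was that of Actb and Actg1. Of all genes tested, 13.2% passed and were likewise highest in replicate 3 and lowest in replicate 2. Whether Srf and the actins vary together was not tested. Because Actg1 and Srf are known SRF targets, the bases before their RefSeq start sites (GRCm38.p6) are shown up to the first base that GENCODE annotates as exon, with each CArG box in capitals. The Actg1 stretch is chr11:120348543-120348615 and the Srf stretch chr17:46556176-46556282, both given on the minus strand.
Actg1: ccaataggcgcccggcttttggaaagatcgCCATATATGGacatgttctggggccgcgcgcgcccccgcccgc
Srf: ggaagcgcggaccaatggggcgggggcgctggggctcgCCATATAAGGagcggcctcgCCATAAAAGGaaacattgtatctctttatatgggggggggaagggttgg
The Actg1 box spans positions -90 to -81 from the start, and the Srf boxes span -82 to -73 and -62 to -53. The motif is the same read on either strand. In windows from 250 bases before to 50 after the start, 1.63% of 32851 promoters held it. Of the 10 genes, 9 have promoters in the RefSeq table (all but Actb, which was not searched), and among those 9 the match was in Actg1. A match is a description of letters and not a test of binding.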

How the data were processed

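Ribosomal RNA-depleted total RNA of 3 libraries in 1 group, from 1 µg RNA and fragments of 250 to 400 nt per the labels, was quantified by the authors on mm10 with GENCODE M21, per the deposited readme files. The deposited expected count is an estimated count per gene or transcript, not normalized; the deposited posterior mean counts, also estimated, served as an alternative. The deposited TPM divides it by effective length. The deposited percent column gives transcript shares of a gene. The columns of the gene and first transcript tables are those of RSEM, and the second transcript table has those of kallisto. Tool versions, and whether counting used strand, were not given in the sources used here. The deposited effective lengths and posterior spreads, other numbers and scores per gene, were read to judge lengths and shared reads.

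Of 81881 gene rows, 55536 matched annotated genes. The other 26345 rows, with 0.462%, 0.109% and 0.0969% of counts in replicates 1, 2 and 3, were left out. Genes received 23403552, 50435201 and 35785896 counts. A count of 0 allows up to 3 counts, or 0.128, 0.0595 and 0.0838 CPM. Rounded counts of each gene with a mean of 10 or more were compared with Poisson sampling (chi-square index of dispersion), with TMM factors from edgeR 4.0.16 (R 4.3.3) and Benjamini-Hochberg adjustment over all genes. DESeq2 1.42.0 gave alternative size factors. The test was checked on simulated data. Tables were handled in pandas 2.3.3 under Python 3.11.15, with scipy 1.17.1 for the tests and matplotlib 3.10.9 for the plots.

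Gene lists, markers and the 10 genes were chosen with earlier results of these data known. Named in each wider list were its 2 highest genes besides the 10 and paralogs of the 10; of the fibroblast and contractile lists the 2 with the highest count, and of the macrophage list the 3 highest. No annotated gene carries the name of one of the 10 as a pseudogene, so copies were found by shared 50-nt stretches. Older symbols Mkl1 and Mkl2 were matched as Mrtfa and Mrtfb.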

Additional observations from a re-analysis of the deposited data

How the results depend on the processing

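All 10 genes passed the between-library test under every alternative run: DESeq2 size factors, library totals, no filter, a mean count of 100, posterior mean counts, the second transcript table and leaving out each library. Over all genes the count of 8984 became 4374 to 7555 without 1 library, the lowest without replicate 2. The log2 ratio of Actb to Actg1 was 1.68 in the second transcript table in place of 1.53. The members' median stood 5.61 above genes of at least 1 TPM in place of 6.35 above genes of at least 0.1 TPM, on the log2(TPM + 1) scale. The cause of the shift in the actin ratio was not tested; the other comes from the higher floor. Of 153 values under alternatives, 142 kept their direction and moved by less than the spread between libraries or stayed within the limits for counts. For levels, ratios and medians, the values without 1 library had to be among the 142. Leaving out 1 of 3 values cannot move a mean by a full SD, so these values say nothing about stability. The highest library of each of the 10 genes was the same under the 5 other scalings and tables. Without replicate 1, the library with fibroblast counts, Vim averaged 540 TPM in place of 477, Actb 2027 in place of 1913 and Tmsb10 463 in place of 386. Leaving it out also gives more weight to replicate 2, where 7 of the 10 genes had their highest TPM. Tmsb10 averaged 231 TPM without replicate 2 and 465 TPM without replicate 3. The part of the fibroblast RNA in these shifts was not tested. No paired analysis was possible because the labels give 1 group. The authors' posterior SD of the Actg1 counts was 24.5, 71.9 and 41.3 counts, and that of each of the other 9 genes at most 1.96.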

Other observations

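Further genes of the actin lists, named after their values were seen, followed the orders of libraries described above. Beside Tmsb10, whose ratio of highest to lowest library was 2.15, stood Gmfg, a blood-cell relative of cofilin that acts on Arp2/3 branches. It had 25.9, 49.2 and 23.5 CPM in replicates 1, 2 and 3, a ratio of 2.10. Gmfb of the same list had 222, 219 and 204 CPM and was highest in replicate 1. The share of all genes with the order of Tmsb10 was not counted. Beside Actb, with a ratio of 1.50, stood Flna, filamin A, which crosslinks filaments into networks. It had 612, 503 and 802 CPM, a ratio of 1.60. Tpm2, a muscle-type tropomyosin, had 28, 8 and 4 counts and was highest in replicate 1, as were all 11 of the fibroblast markers that were tested. Of the 93 genes of the wider lists that were tested, 19 (20.4%) passed and were highest in replicate 3 and lowest in replicate 2, against 13.2% of all genes tested and 19.9% of the genes of high count.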
